A study of Homo sapiens with 8 samples.

Results

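The miR-15/16 family was followed across 4 human cancer cell lines together with miR-195 and miR-497, which share its seed. Members were taken by name from the table of mature miRNAs. The 9 members are hsa-miR-15a-5p, hsa-miR-15a-3p, hsa-miR-16-5p, hsa-miR-16-1-3p, hsa-miR-16-2-3p, hsa-miR-15b-5p, hsa-miR-15b-3p, hsa-miR-195-5p and hsa-miR-497-5p, out of 2588 mature names, and they fill 10 table entries because hsa-miR-16-5p has an entry for each of its 2 genomic copies. Small RNA libraries had been made from ES-2 (ovarian cancer), MV-3 (melanoma), Huh-7 (hepatocellular carcinoma) and A-549 (lung adenocarcinoma) cells, with 2 replicate libraries per line. All cells were parental and untreated, and were harvested 48 h after seeding. The study read from these libraries which miRNAs the lines carry in common and in which they differ. Each cancer type is represented by 1 line, so differences between lines and between cancer types cannot be told apart.

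A miRNA hairpin gives a 5p and a 3p arm, of which usually one is loaded into an Argonaute protein and the other is degraded. Bases 2 to 8 of the loaded arm, the seed, pair with target mRNAs, so that miRNAs with the same seed can repress overlapping sets of mRNAs. The miR-15/16 family is known as a brake on cell division and survival, with cyclins and the survival protein BCL2 among its targets, and its chromosome 13 locus is often deleted in chronic lymphocytic leukaemia.

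The members come from 3 clusters of 2 hairpins each (RefSeq positions on GRCh38.p14, host genes from GENCODE). On chromosome 13, MIR15A (50049119 to 50049201) and MIR16-1 (50048973 to 50049061) lie on the minus strand 57 bases apart inside the long noncoding RNA gene DLEU2, where MIR16-1 is intronic and MIR15A overlaps an exon of 8 annotated transcripts. On chromosome 3, MIR15B (160404588 to 160404685) and MIR16-2 (160404745 to 160404825) lie on the plus strand 59 bases apart in an intron of SMC4, the gene of a condensin subunit. On chromosome 17, MIR195 (7017615 to 7017701) and MIR497 (7017911 to 7018022) lie on the minus strand 209 bases apart within the noncoding host gene MIR497HG, and both overlap an exon of 1 of its transcripts.

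The mature 5p sequences are shown because they carry the shared seed (capitals) and because 1 of them, miR-16-5p, is made by both the chromosome 13 and the chromosome 3 locus (sequences from RefSeq, GRCh38.p14, matched by name for all 9 members).
hsa-miR-15a-5p: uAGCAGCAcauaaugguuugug
hsa-miR-15b-5p: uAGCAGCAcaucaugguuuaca
hsa-miR-16-5p: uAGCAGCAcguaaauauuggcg
hsa-miR-195-5p: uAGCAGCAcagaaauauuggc
hsa-miR-497-5p: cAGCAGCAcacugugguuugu

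All 5 have the seed AGCAGCA. Compared over their whole length, seed included, they fall apart into different pairs. miR-195-5p matches miR-16-5p at 19 of 21 compared bases, whereas miR-195-5p and miR-497-5p, which come from the same cluster, match at 12 of 21. miR-15a-5p and miR-15b-5p match at 18 of 22.

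The 3p arms are shown because, unlike miR-16-5p, they tell the loci apart. Their seeds (capitals) differ from that of the 5p arms.
hsa-miR-15a-3p: cAGGCCAUauugugcugccuca
hsa-miR-15b-3p: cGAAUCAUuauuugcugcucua
hsa-miR-16-1-3p: cCAGUAUUaacugugcugcuga
hsa-miR-16-2-3p: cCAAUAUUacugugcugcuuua

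The miR-16 hairpins of chromosomes 13 and 3 are identical over the 22 bases of miR-16-5p but share 0 bases directly before it and 1 base directly after it. A read that ends at the mature ends therefore fits both loci equally, whereas reads of the 3p arms do not.

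The libraries held 1173902 to 2670030 miRNA reads. Levels are given as normalised CPM, the deposited values, which are reads per 1000000 scaled by a factor per library that corrects for RNA composition (TMM). These factors ran from 0.593 to 1.70, so the scaling carries weight: without it, the median log2 difference of all 528 tested miRNAs moved from 0.34 to 1.07 for Huh-7 against ES-2 and from -0.09 to -1.38 for A-549 against Huh-7. Lineage miRNAs were read as a check of the labels. The hepatocyte miRNA miR-122-5p stood at 83720 normalised CPM in Huh-7 and at 5.33 to 32.8 in the other lines. The melanocyte miRNAs were absent or nearly so from MV-3, with 0 reads of miR-211-5p and 1.29 ± 0.27 normalised CPM (SD, n = 2) of miR-204-5p, which was highest in Huh-7 (34.7). Of the epithelial miRNAs, miR-141-3p had at most 5.25 normalised CPM in any line, whereas miR-200c-3p had 119.8 in Huh-7, 79.9 in A-549, 44.5 in ES-2 and 18.6 in MV-3. The mesenchymal miR-199a-3p stood at 7245 in MV-3 and 4731 in ES-2, and at 6.73 and 8.81 in Huh-7 and A-549.

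The family's most abundant member was miR-16-5p. It reached 4718 and 4341 normalised CPM in the Huh-7 libraries, 3550 and 3753 in ES-2, 3042 and 3307 in MV-3, and 2710 and 2573 in A-549. The Huh-7 libraries were the highest and the A-549 libraries the lowest, and no 2 lines overlapped. By rank it was the 23rd most abundant miRNA in Huh-7 and the 38th in A-549. The 4 lines differed in miR-16-5p (limma, adjusted p = 0.000426), but neighbours in the order Huh-7, ES-2, MV-3, A-549 did not pass the threshold of 0.01 (adjusted p = 0.0104, 0.0791 and 0.0236).

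miR-15b-5p was the next 5p member, with 1725 and 1572 normalised CPM in MV-3, 1623 and 1362 in Huh-7, 1324 and 1506 in ES-2, and 1100 and 878 in A-549. Huh-7 overlapped both MV-3 and ES-2, and A-549 lay below all of them. The joint comparison of the 4 lines missed the threshold (adjusted p = 0.0121). The 3p partner of miR-16 on chromosome 3, miR-16-2-3p, was about as abundant as miR-15b-5p in MV-3 (1721 and 1608 normalised CPM). It was less abundant than miR-15b-5p in ES-2 (1014 and 1053), Huh-7 (991 and 981) and A-549 (796 and 734). Here MV-3 was the highest line and A-549 was the lowest (4 lines, adjusted p = 7.36e-05). ES-2 and Huh-7 did not pass the test against each other (adjusted p = 0.494), but with libraries scaled by size only Huh-7 was called higher (0.89, adjusted p = 5.39e-05).

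miR-15b-3p, the minor arm of MIR15B, stood at 326 and 334 normalised CPM in MV-3, 199 and 197 in Huh-7, 155.5 and 153.6 in ES-2, and 112 and 103 in A-549. The lines did not overlap and ran MV-3, Huh-7, ES-2, A-549 (4 lines, adjusted p = 5.99e-05), and of the neighbours only Huh-7 and ES-2 missed the threshold (adjusted p = 0.0218).

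miR-15a-5p, the chromosome 13 counterpart of miR-15b-5p, was present at 291 and 244 normalised CPM in Huh-7, 159.7 and 138 in ES-2, 119 and 114.5 in A-549, and 97.0 and 128 in MV-3. Both Huh-7 libraries lay above the other 6, while MV-3 and A-549 overlapped. The 4 lines differed (adjusted p = 0.0021), with Huh-7 above ES-2 (adjusted p = 0.00643) and no difference past the threshold further down the order ES-2, A-549, MV-3 (adjusted p = 0.148 and 0.800). With libraries scaled by size only, A-549 was called below ES-2 in miR-15a-5p (-0.85, adjusted p = 0.00683) and, with the sign reversed, below MV-3 (-0.88, adjusted p = 0.00629).

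The chromosome 17 members were scarce. For miR-195-5p, A-549 gave 45 and 33 reads, Huh-7 72 and 28, MV-3 23 and 16, and ES-2 16 and 28, which come to 27.3 ± 0.50, 14.9 ± 7.6, 12.9 ± 5.8 and 12.7 ± 2.3 normalised CPM (SD, n = 2). For miR-497-5p, MV-3 gave 17 and 18 reads, ES-2 17 and 17, Huh-7 38 and 22, and A-549 7 and 6, or 11.2 ± 1.9, 10.3 ± 2.2, 9.11 ± 2.3 and 4.61 ± 0.42 normalised CPM. In A-549 the mean of miR-195-5p was the highest and that of miR-497-5p the lowest of the 4 lines, but neither miRNA passed the joint test (adjusted p = 0.2003 and 0.0997). With libraries scaled by size only, the mean of miR-195-5p was highest in Huh-7 (24.7 CPM, beside 16.4 in A-549). With that scaling, miR-497-5p was called lower in A-549 than in MV-3 (-1.89, adjusted p = 0.00512) and Huh-7 (-2.09, adjusted p = 0.00231). Against ES-2 it was not called (-1.37, adjusted p = 0.0192). Because miR-195-5p differs from miR-16-5p at few bases, its reads were also set against those of miR-16-5p. They amounted to 0.348 ± 0.050, 0.413 ± 0.21 and 0.325 ± 0.15 reads per 100 miR-16-5p reads in ES-2, MV-3 and Huh-7, and to 1.04 ± 0.019 in A-549. How many of them are misread or misaligned miR-16-5p reads was not tested.

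The 3p arms of chromosome 13 were at or near the limit of detection, taken as 3 reads. miR-15a-3p had 0 reads in all 8 libraries. For miR-16-1-3p, Huh-7 gave 12 and 7 reads, A-549 7 and 3, ES-2 3 and 0, and MV-3 none in either library. Neither passed the filter on low values, so 7 of the 9 members entered the tests between lines.

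**Figure D1:**
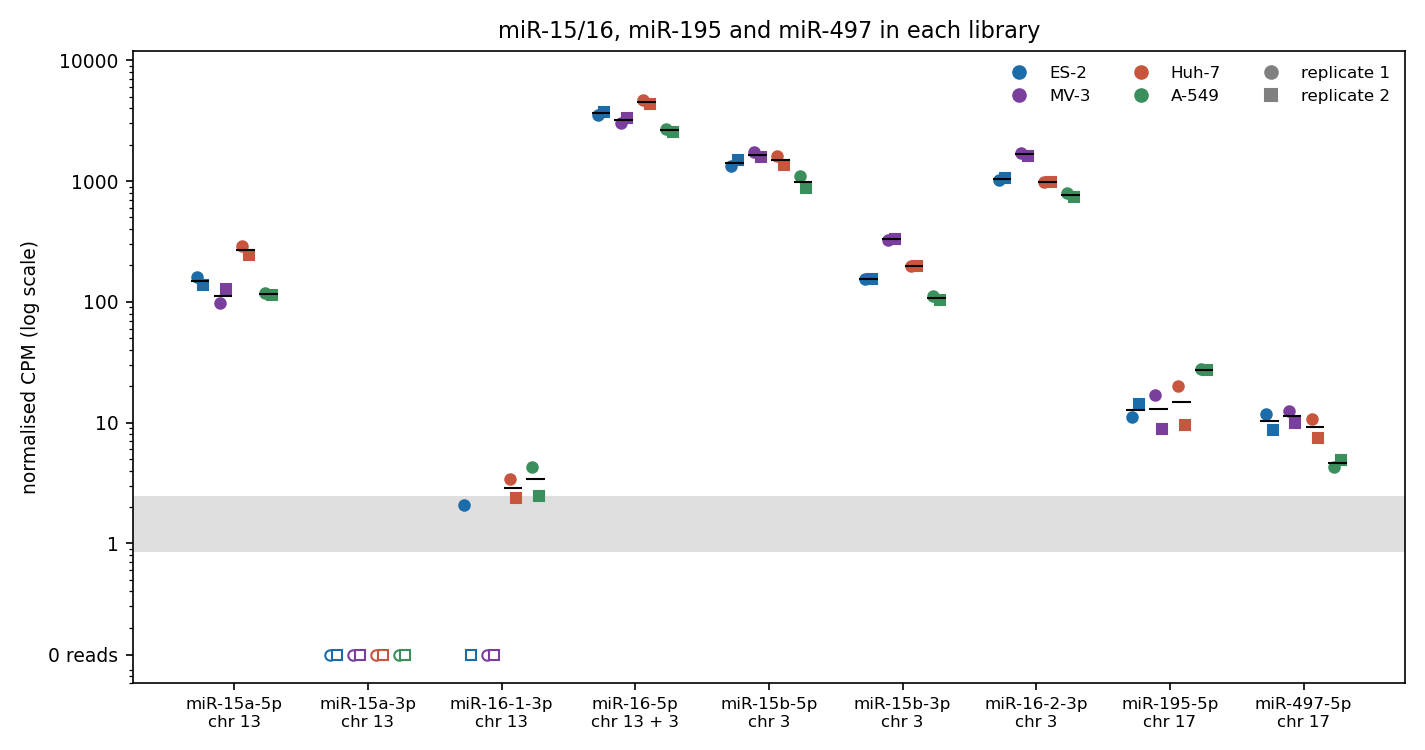
Normalised CPM (log axis) of the 9 members in each of the 8 libraries, coloured by line, with replicates as circles and squares and the line mean as a bar where both libraries had reads. Open symbols on the lowest tick are libraries with 0 reads, and the grey band is the level of 3 reads, 0.845 to 2.45 normalised CPM. miR-16-5p lies highest in every library, the chromosome 17 members lie near 10, and miR-15a-3p is at 0 reads throughout.

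Of the 7 tested members, 4 were called among the 4 lines (miR-15a-5p, miR-15b-3p, miR-16-2-3p and miR-16-5p, limma, adjusted p below 0.01), where 68.2% of all tested miRNAs were called, so the share of members called was not above the background. Of 17 called differences over the 6 pairs of lines, 6 stayed called in each of 19 alternative settings and 0 changed sign in any of them. Those 6 were miR-15b-3p and miR-16-2-3p in MV-3 against ES-2 and in A-549 against MV-3, and miR-16-5p and miR-15b-3p in A-549 against Huh-7. In 3 of the 6 the log2 difference was below 1 in size, so a minimum of 1, tried as a further alternative, ends those calls.

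MV-3 had more of both 3p arms of chromosome 3 than ES-2. miR-15b-3p was higher by 1.09 (SE 0.10, adjusted p = 0.000279) and miR-16-2-3p by 0.69 (SE 0.072, adjusted p = 0.000493) on the log2(normalised CPM + 1) scale on which all differences between lines are given. miR-15b-5p, the major arm of the same MIR15B hairpin, differed by 0.22 (SE 0.14, adjusted p = 0.299). With 2 of 7 members called, 25.8% of all tested miRNAs called, and medians of 0.12 for the members and 0 for all miRNAs, the count does not set the family apart.

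Huh-7 had more miR-15a-5p than MV-3 (1.25, SE 0.18, adjusted p = 0.00103) and more miR-16-5p (0.51, SE 0.073, adjusted p = 0.00107), but less miR-16-2-3p (-0.75, SE 0.072, adjusted p = 0.000154) and less miR-15b-3p (-0.74, SE 0.10, adjusted p = 0.000847). These 4 of 7 members compare with 47% of all tested miRNAs called, and the medians were -0.15 and 0.19. Both 5p calls were lost without Huh-7 replicate 1 (adjusted p = 0.0131 for miR-15a-5p and 0.0102 for miR-16-5p), and both 3p calls were lost when libraries were scaled by size only (miR-16-2-3p -0.23, adjusted p = 0.0288; miR-15b-3p -0.22, adjusted p = 0.123).

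Against ES-2, Huh-7 differed past the threshold in miR-15a-5p alone (0.84, SE 0.18, adjusted p = 0.00643), 1 of 7 members where 49.2% of all tested miRNAs were called, with medians of 0.14 and 0.34. miR-16-5p just missed it (0.31, SE 0.073, adjusted p = 0.0104). The call of miR-15a-5p was lost when any ES-2, Huh-7 or A-549 library was left out (adjusted p = 0.0183 to 0.0488).

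A-549 had the lowest mean of the 4 lines in 5 of the 7 tested members, miR-15a-5p and miR-195-5p being the exceptions. Against Huh-7 it had less miR-15a-5p (-1.19, SE 0.18, adjusted p = 0.00122), less miR-15b-3p (-0.88, SE 0.10, adjusted p = 0.000347), less miR-16-5p (-0.78, SE 0.073, adjusted p = 0.00014) and less miR-16-2-3p (-0.37, SE 0.072, adjusted p = 0.00424). This was 4 of 7 members, with 52.3% of all tested miRNAs called and medians of -0.78 and -0.09. The miR-15a-5p call was lost without Huh-7 replicate 1 or either A-549 library (adjusted p = 0.0114 to 0.0143), and that of miR-16-2-3p without either Huh-7 library or A-549 replicate 2 (0.0164 to 0.0218) and with RLE size factors (-0.14, adjusted p = 0.194).

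Against MV-3, A-549 had less miR-15b-3p (-1.61, SE 0.10, adjusted p = 3.62e-05), the biggest difference of any called member, less miR-16-2-3p (-1.12, SE 0.072, adjusted p = 4.02e-05) and less miR-15b-5p (-0.74, SE 0.14, adjusted p = 0.00518). All of these are products of chromosome 3, and they were 3 of 7 members with 39.6% of all tested miRNAs called and medians of -0.74 and 0.08. With libraries scaled by size only, 6 members were called. These included miR-16-5p (-1.22, adjusted p = 1.94e-05) and miR-15a-5p of chromosome 13 (-0.88, adjusted p = 0.00629). The miR-15b-5p call was lost when any 1 library other than A-549 replicate 1 was left out (adjusted p = 0.0124 to 0.0405).

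Against ES-2, A-549 had less miR-15b-3p (-0.52, SE 0.10, adjusted p = 0.00491), miR-16-5p (-0.47, SE 0.073, adjusted p = 0.00196) and miR-16-2-3p (-0.43, SE 0.072, adjusted p = 0.00244), 3 of 7 members with 41.3% of all tested miRNAs called and medians of -0.47 and 0.0031. miR-15b-5p differed by -0.52 (SE 0.14, adjusted p = 0.0221). miR-16-5p lost its call without any 1 of the ES-2 or A-549 libraries (adjusted p = 0.0108 to 0.0178), miR-16-2-3p without either ES-2 library or A-549 replicate 2 (0.0116 to 0.016), and miR-15b-3p without either ES-2 or MV-3 library or A-549 replicate 2 (0.011 to 0.018). With RLE size factors, miR-16-2-3p and miR-15b-3p lost theirs as well (adjusted p = 0.0139 and 0.0158).

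**Figure D2:**
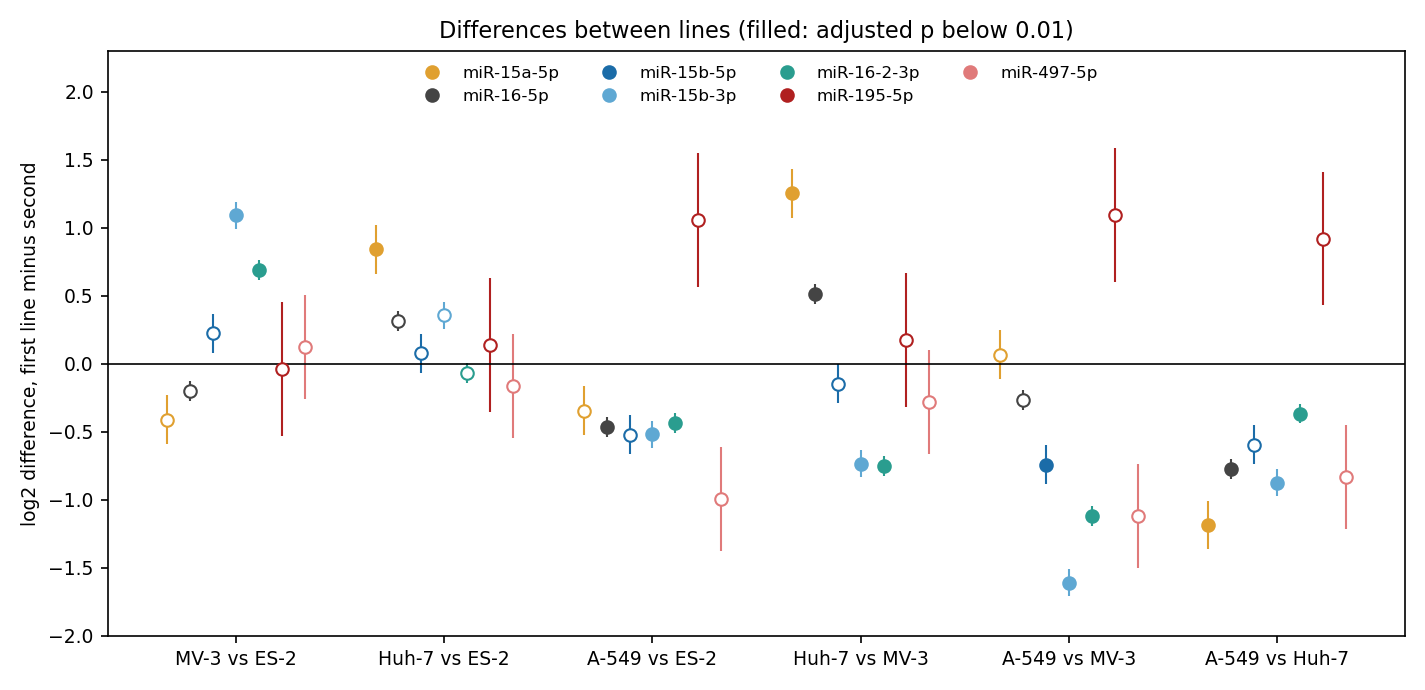
Difference between 2 lines on the log2(normalised CPM + 1) scale (vertical axis) for the 7 tested members in the 6 pairs of lines, with bars of 1 SE from the limma fit. Filled points passed an adjusted p below 0.01. miR-15b-3p reaches from -1.61 for A-549 against MV-3 to 1.09 for MV-3 against ES-2, and the open points of miR-195-5p and miR-497-5p carry the widest bars.

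The deposited entries of miR-16-5p split its reads almost evenly between the loci, whereas the arms that tell the loci apart did not. The chromosome 13 entry of miR-16-5p held 29632 reads and the chromosome 3 entry 29943, so that chromosome 13 had 49.7% (exact binomial 95% interval 49.3 to 50.1%) over the 8 libraries and 48.3 to 50.9% in single libraries. Of the miR-15 5p arms, 2945 reads were miR-15a-5p and 22648 miR-15b-5p, which is 11.5% (11.1 to 11.9%) from chromosome 13. Of the miR-16 3p arms, 32 reads were miR-16-1-3p and 17347 miR-16-2-3p, or 0.184% (0.126 to 0.26%) from chromosome 13. These shares count reads of an arm and differed between the arms. How much of each arm is degraded was not measured, so they do not give the output of a locus. Intervals cover counting error only.

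No difference between lines was detected in the even split. Its means were 50.6% in both A-549 and ES-2, 49.4% in Huh-7 and 49.2% in MV-3 (exact permutation test over the partitions of the 8 libraries into 4 pairs, p = 0.267, adjusted over 9 measures 0.267). The share of chromosome 13 among the miR-15 5p arms, in contrast, ran from 5.32% and 7.52% in MV-3 to 15.2% in both Huh-7 libraries. Because the mature sequence is the same at both loci and the handling of reads that fit several places was not stated, the split of the miR-16-5p entries is given as deposited and is not used as a measure of either locus.

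The deficit of the 3p arms of chromosome 13 held within each line. miR-16-2-3p had 336 times the reads of miR-16-1-3p in Huh-7 (counting interval 215 to 559), 219 times in A-549 (119 to 457) and 1170 times in ES-2 (400 to 5680). The ES-2 value rests on 3 reads, all in replicate 1, where the ratio was 487 (166 to 2360). In MV-3, where miR-16-1-3p had 0 reads, miR-16-2-3p was at least 1750-fold higher. For MIR15A, the 3p arm was at least 111-fold lower than the 5p arm in A-549 and at least 583-fold lower in Huh-7. It was at least 103-fold to 428-fold lower than miR-15b-3p, each against a floor of 3 reads over the 2 libraries of a line. Levels of different miRNAs are compared as reads, all members being 21 or 22 bases long, and how efficiently each sequence was captured in the libraries was not measured.

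**Figure D3:**
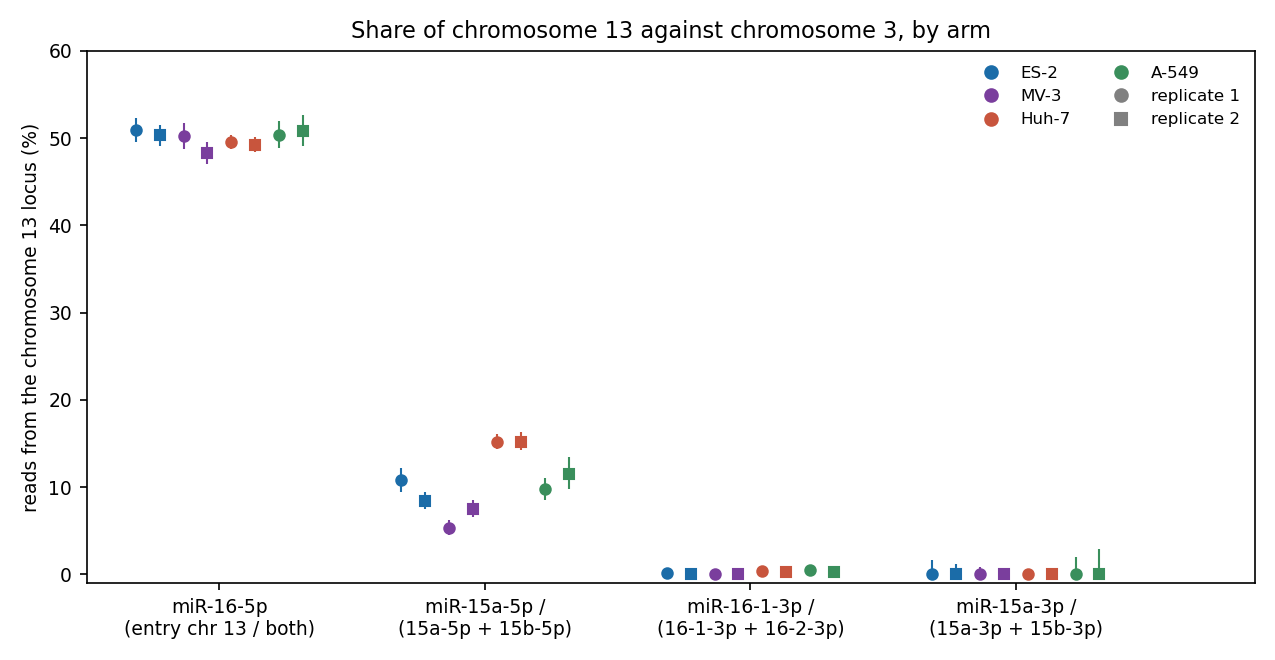
Percentage of reads from the chromosome 13 locus out of chromosomes 13 and 3 (vertical axis), in each of the 8 libraries, for the entries of miR-16-5p, the miR-15 5p arms, the miR-16 3p arms and the miR-15 3p arms. Bars are exact binomial 95% intervals. The miR-16-5p entries sit near 50.0%, the miR-15 5p arms between 5.32% and 15.2%, and all points of both 3p comparisons below 1.0%.

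Ratios within a library do not depend on how libraries are scaled. In 3 of the 7 tested, MV-3 had the lowest mean and Huh-7 the highest. miR-15a-5p had 0.179 reads per miR-15b-5p read in Huh-7, 0.119 in A-549, 0.105 in ES-2 and 0.0678 in MV-3. Huh-7 lay above MV-3 by 1.40 on the log2 scale, and the 4 lines gave an exact permutation p of 0.019 (adjusted p = 0.0571 over 9 measures). The smallest p that 8 libraries in 4 pairs allow is 0.00952. After adjustment over 9 measures, a measure at that p passes 0.05 only if other measures have small p values too. None of the 9 measures passed an adjusted p below 0.05, which does not show that the lines are alike.

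The arm ratio of the miR-16 sequences had a similar span. Per read of miR-16-2-3p there were 1.91 reads of miR-16-5p in MV-3, 3.46 in A-549, 3.53 in ES-2 and 4.59 in Huh-7. Both MV-3 libraries lay below and both Huh-7 libraries above all others, 1.27 apart on the log2 scale (exact permutation p = 0.019, adjusted p = 0.0571). miR-16-5p comes from both loci here, so this is not the arm ratio of a single hairpin. For MIR15B, where both arms are specific to the hairpin, 4.98 reads of miR-15b-5p per read of miR-15b-3p in MV-3 compared with 7.51 in Huh-7 and 9.12 in both ES-2 and A-549. The span was 0.87 on the log2 scale (exact permutation p = 0.0476, adjusted p = 0.0857).

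The 3p arms of the chromosome 3 hairpins kept closer step with each other. There were 4.98 reads of miR-16-2-3p per read of miR-15b-3p in Huh-7, 5.03 in MV-3, 6.67 in ES-2 and 7.09 in A-549, a span of 0.51 on the log2 scale (exact permutation p = 0.0286, adjusted p = 0.0643). On chromosome 17, miR-497-5p and miR-195-5p had nearly equal reads in MV-3, with a ratio of 0.914, whereas A-549 had 0.179 reads of miR-497-5p per read of miR-195-5p. This span of 2.35 on the log2 scale was the widest of the 7 ratios, but rests on 13 reads of miR-497-5p in A-549 (exact permutation p = 0.0762, adjusted p = 0.098). The ratio of miR-16-5p to the sum of miR-15a-5p and miR-15b-5p spanned 0.52 (adjusted p = 0.098), and that of the chromosome 17 pair to the same sum 1.15 (adjusted p = 0.15).

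**Figure D4:**
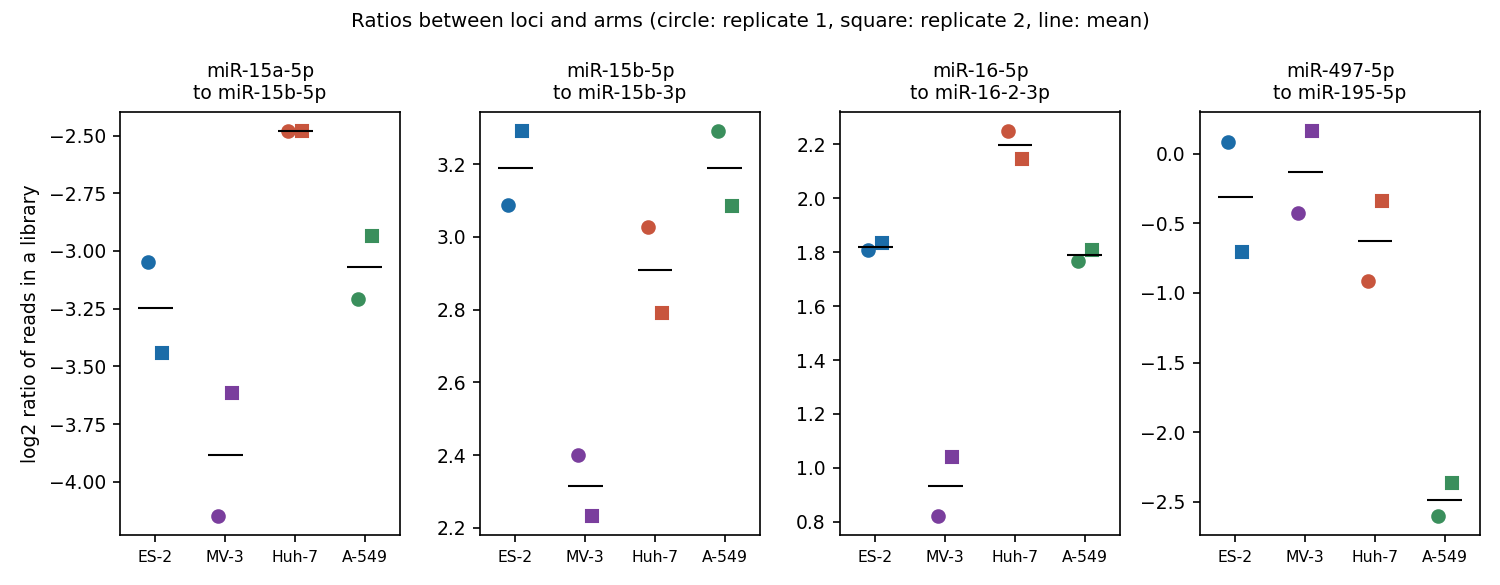
Log2 ratio of reads within each library (vertical axes, each panel with its own range) for 4 of the 7 tested ratios, by line, with circles for replicate 1, squares for replicate 2 and a bar for the mean. MV-3 is lowest for miR-15a-5p to miR-15b-5p, for miR-15b-5p to miR-15b-3p and for miR-16-5p to miR-16-2-3p. A-549 is lowest for miR-497-5p to miR-195-5p.

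The reads of the 5 members with the seed AGCAGCA were summed. miR-424-5p and miR-6838-5p, which have the same seed but are not members, were left out. The 5 members took 1.09 and 1.02% of all miRNA reads in Huh-7, 0.563 and 0.591% in MV-3, 0.438 and 0.46% in ES-2, and 0.241 and 0.213% in A-549. No lines overlapped (exact permutation p = 0.00952, the smallest possible, adjusted p = 0.0571), and Huh-7 had 4.63 times the share of A-549. The size of this contrast depended on the scaling. As a sum of normalised CPM, a quantity added after seeing the data, the means were 6314 in Huh-7, 5238 in ES-2, 4960 in MV-3 and 3779 in A-549, so that ES-2 and MV-3 changed places.

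Within the sum, miR-16-5p made up 62.2 to 72.8% of the reads of each library, miR-15b-5p 22.8 to 35.2%, miR-15a-5p 1.98 to 4.37%, and miR-195-5p with miR-497-5p 0.286 to 0.887%. MV-3 had the lowest part of miR-16-5p (64.0 ± 2.5%, SD, n = 2) and the highest of miR-15b-5p (33.2 ± 2.8%), and Huh-7 the highest of miR-15a-5p (4.23 ± 0.20%). In A-549 the chromosome 17 pair reached 0.848 ± 0.056%, which was miR-195-5p for the most part (0.725 ± 0.036%).

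**Figure D5:**
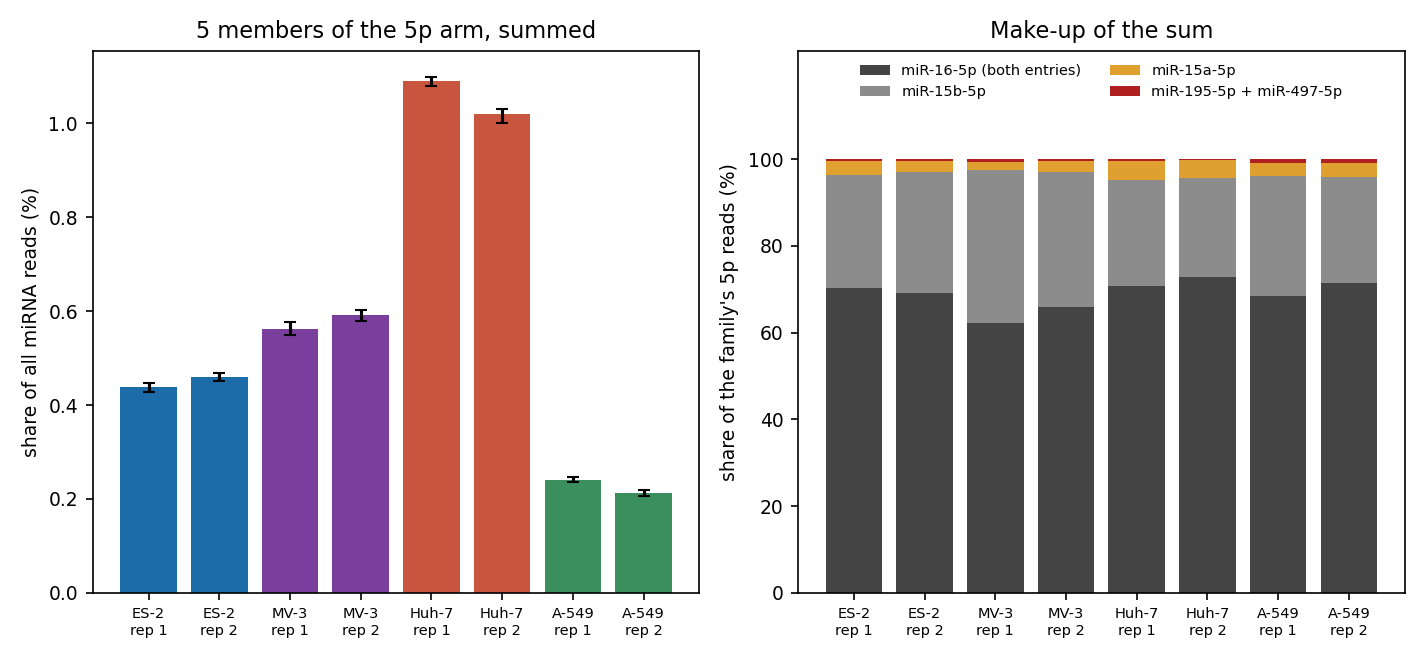
Left, share of all miRNA reads (%) taken by miR-15a-5p, miR-15b-5p, miR-16-5p, miR-195-5p and miR-497-5p in each library, with exact binomial 95% intervals. Right, make-up of that sum (%) in each library. Huh-7 has the highest sum (1.09 and 1.02%) and A-549 the lowest (0.241 and 0.213%), while miR-16-5p is the major part in every library.

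A fixed list of 8 relatives gave the surroundings of the family. Of these, miR-424-5p and miR-6838-5p have the same seed, and miR-424-3p and miR-503-5p come from the same X-chromosome cluster as miR-424-5p. The list further holds miR-103a-3p and miR-107, whose seed is shifted by 1 base, and the 3p arms of MIR195 and MIR497. Of 5 relatives tested, 4 were called among the 4 lines, with miR-107 the exception (adjusted p = 0.0473), beside the 68.2% of all tested miRNAs. miR-424-5p stood at 688 ± 35 normalised CPM in ES-2 and 554 ± 104 in A-549, but at 149.9 ± 26 in MV-3 and 121 ± 20.1 in Huh-7 (SD, n = 2).

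The lines highest in miR-424-5p, ES-2 and A-549, were thus not those highest in miR-15a-5p (Huh-7) or miR-16-2-3p (MV-3). Of the other members with its seed, miR-16-5p had its highest mean in Huh-7, and miR-15b-5p and miR-497-5p in MV-3. The mean of miR-195-5p was highest in A-549 (27.3 normalised CPM), though it did not pass the joint test. MV-3 had less miR-424-5p than ES-2 by a log2 difference of -2.20 (SE 0.19, adjusted p = 0.000237), and A-549 had more than Huh-7 by 2.18 (SE 0.19, adjusted p = 0.000106). miR-503-5p went the same way in these pairs, by -1.74 (SE 0.11, adjusted p = 5.21e-05) and 1.37 (SE 0.11, adjusted p = 5.61e-05). miR-195-3p had 6 to 19 reads per line, miR-497-3p 0 reads in every line, and miR-6838-5p at most 2 reads per line.

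The miRNAs most like each member were sought over the 8 libraries among 176 non-member miRNAs whose mean was 100 normalised CPM or more, as a description with no test, since libraries of a line share their source. miR-16-5p was most like miR-425-5p (Pearson's r = 0.99), miR-186-5p (0.988) and miR-615-3p (0.971). miR-15a-5p was likewise most like miR-425-5p (0.911), ahead of miR-191-5p (0.91) and miR-93-5p (0.906). miR-16-2-3p was most like miR-151a-5p (0.921), miR-330-3p (0.842) and miR-151a-3p (0.802). miR-15b-5p was nearest to miR-574-3p (0.867), miR-30e-3p (0.839) and miR-197-3p (0.801), and miR-15b-3p to miR-103a-3p (0.887), miR-3613-5p (0.839) and miR-421 (0.828). These neighbours depended on the scaling and the measure. Of the 15 listed, 6 were also among the 3 nearest without the composition factor and 5 by Spearman's rho. Among the members, miR-16-2-3p and miR-15b-3p had r = 0.954 and miR-15a-5p and miR-16-5p r = 0.891, whereas miR-16-5p and miR-16-2-3p had 0.128. Without the composition factor the last value was 0.833. Likeness did not follow the loci throughout. miR-15b-5p had r = 0.842 with miR-15b-3p of its own hairpin, but also 0.847 with miR-497-5p of another locus. miR-195-5p and miR-497-5p, of the same cluster, had -0.589 (0.22 without the factor). miR-16-5p had 0.612 with miR-15b-5p.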

How the data were processed

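Small RNA libraries (NEXTflex kit) of 4 cell lines, 2 biological replicates each, were sequenced by the authors. Per the study's methods and the submitters' processing notes, reads were trimmed with Cutadapt 1.14, aligned to GRCh38 with Bowtie2 2.3.2 and counted on miRBase 21 with featureCounts 1.5.3. The handling of multi-mapped reads, strand and the kit's random adapter bases is not given in the sources used here. The authors deposited a normalised signal, CPM scaled by edgeR 3.18.1 with TMM.

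Dividing each column by its smallest step gave whole reads for 100% of values (tolerance 0.001 reads), from which reads and TMM factors were recovered. Entries of a name were summed. limma 3.58.1 with a mean-dependent prior variance was fitted to log2(normalised CPM + 1), with 1 term per line over 8 libraries and 4 residual degrees of freedom, for the 528 miRNAs left by filterByExpr. Differences on this scale understate those of miRNAs with few reads. P values were adjusted by Benjamini-Hochberg over all 528, with calls at an adjusted p below 0.01. Ratios used reads with 0.5 added, and were tested where both parts had at least 10 reads in each line. They were tested with an exact, two-sided permutation test of the F ratio over all partitions of the libraries, adjusted over 9 measures. Software was R 4.3.3, edgeR 4.0.16, DESeq2 1.42.0 and Python 3.11.15 with scipy 1.17.1, and fits were tested on simulated data. Host genes came from GENCODE release 44.

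The text names the 9 members, a list of 8 relatives, and for each member with a mean of at least 100 CPM the 3 miRNAs with the highest r. Members, lists and tests were chosen with earlier results of these data known. Alternatives were edgeR and DESeq2 on reads, RLE or size-only scaling, other filters, thresholds and pseudocounts, unsummed entries, fits of 2 lines alone, a replicate block and leaving out each library.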

Additional observations from a re-analysis of the deposited data

How the results depend on the processing

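The number of members called depended on the setting. For Huh-7 against ES-2 (1 in the report) it was 5 with library size only, 2 with at least 10 CPM in 2 libraries, 3 at an adjusted p below 0.05, and 0 with no filter, in a fit of the pair alone or with a log2 difference of at least 1, and 0 to 1 without single libraries. For A-549 against ES-2 (3) it was 1 with DESeq2 and with RLE size factors, 5 with library size only, 0 with no filter, in the pair alone or with a log2 difference of at least 1, and 0 to 3 without single libraries. For Huh-7 against MV-3 (4) it was 2 with library size only and in the pair alone, 1 with a log2 difference of at least 1, and 2 to 4 without single libraries. For A-549 against MV-3 (3) it was 6 with library size only and 5 at an adjusted p below 0.05. For A-549 against Huh-7 (4) it was 6 with library size only, 1 with a log2 difference of at least 1 and 2 to 4 without single libraries, and for MV-3 against ES-2 (2) it was 3 with library size only and 1 with a log2 difference of at least 1.

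Whether libraries with the same replicate number were handled together is not given in the sources used here. Correlations of their deviations ran from -0.05 to 0.232 over the 6 pairs of lines, highest for Huh-7 against ES-2. With 2 libraries per line, these values cannot exclude a shared batch. With a replicate block, 0 members were called for Huh-7 against ES-2 (miR-15a-5p, adjusted p = 0.0128), miR-15b-3p lost its call for A-549 against ES-2 (0.0118), and miR-15b-5p gained one for A-549 against Huh-7 (0.00965).

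Signs changed for differences that had not been called. With library size only, 2 of them passed the threshold in the opposite direction, Huh-7 against ES-2 for miR-16-2-3p (adjusted p = 5.39e-05) and A-549 against MV-3 for miR-15a-5p (0.00629). All reversed with library size only were MV-3 against ES-2 for miR-15a-5p (0.025), miR-16-5p (0.24) and miR-195-5p (0.37), Huh-7 against ES-2 for miR-16-2-3p (0.89) and miR-497-5p (0.72), Huh-7 against MV-3 for miR-15b-5p (0.37) and miR-497-5p (0.19), A-549 against MV-3 for miR-15a-5p (-0.88), and A-549 against Huh-7 for miR-195-5p (-0.48). miR-15b-5p, Huh-7 against ES-2, became -0.0595 with DESeq2 and -0.0535 with RLE size factors. Without single libraries, reversed values covered -0.48 to 0.40 for miR-195-5p and -0.0746 to 0.32 for miR-497-5p (MV-3 against ES-2), -0.0518 to 0.20 for miR-15b-5p, -0.37 to 0.64 for miR-195-5p and -0.39 to 0.068 for miR-497-5p (Huh-7 against ES-2), -0.33 to 0.68 for miR-195-5p (Huh-7 against MV-3), and -0.13 to 0.26 for miR-15a-5p (A-549 against MV-3). The causes were not tested.

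For the 9 measures of ratios and shares, the exact permutation test with a replicate block has 24 partitions. Its unadjusted p ran from 0.0417, the smallest possible, to 0.25. Without single libraries the spans on the log2 scale were 1.14 to 1.67 for miR-15a-5p to miR-15b-5p, 1.16 to 1.38 for miR-16-5p to miR-16-2-3p, 0.509 to 0.511 for miR-16-2-3p to miR-15b-3p, and 0.789 to 0.862 percentage points for the family's share. The chromosome 17 members had at most 72 reads in a library, and the smallest difference detectable at that depth was not tested.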

Other observations

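miR-16-5p is one of 25 mature names that have a pair of entries, one for each genomic copy, and at least 1000 reads in all. In 19 of them, the entry with fewer reads held at least 45% of the reads (median over the 25 names 48.8%, range 3.1 to 50.0%), and miR-16-5p was at 49.7%. Among names with an uneven split were miR-194-5p (16.9%) and miR-138-5p (30.4%), which were chosen after their values were seen.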
